A study of Mus musculus with 21 samples.

Results

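The Gimap genes (GTPases of the immunity-associated protein family) were followed here in mouse hematopoietic stem cells (HSCs). They encode small GTP-binding proteins, most of them anchored to intracellular membranes, which are known from lymphocytes, where they control survival and homeostasis. Loss of Gimap5 shortens the life of peripheral T cells and has been linked to impaired HSC function, and Gimap6 protein binds GABARAP-type ATG8 proteins of the autophagy machinery. The genes lie side by side in a single cluster. The 7 members, Gimap1, Gimap4, Gimap5, Gimap6, Gimap7, Gimap8 and Gimap9, were taken by symbol from the 47729 genes of the count table. The family was chosen by measured values of these data: Gimap4 ranked 3 of 16149 genes by p between genotypes in DMSO. That contrast is therefore described and not tested.

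The study sorted HSCs (CD48- LSK CD150+) from bone marrow into 21 SMART-seq2 libraries, 3 in each of 7 groups. The treatment experiment has 12 libraries: wild-type (WT) mice and Mx1-Cre;Atg5fl/fl mice, labelled Atg5-/-, each given bortezomib, a proteasome inhibitor, or the vehicle DMSO. Bortezomib at 10 mg/kg, or 10% DMSO, was given retro-orbitally, first 48 h and again 24 h ahead of analysis. The reporter experiment has 9 libraries from untreated RFP-EGFP-LC3 mice, sorted as RFP single positive, RFP GFP double positive or double negative; in this reporter EGFP is quenched in lysosomes and RFP is not. Mx1-Cre is driven by an interferon-inducible promoter that is active beyond HSCs. The labels used here do not state its induction, nor the age, sex or strain of the mice. The labels do not say whether replicates came from separate mice, so p-values measure the spread between libraries only.

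Library totals ran from 15005500 to 31481691 counts, and 16095 to 18899 genes were detected. Levels are given as CPM (read counts scaled to a common library size), scaled by TMM over all 21 libraries. At these depths 3 counts, the limit that a count of 0 allows, correspond to 0.0958 to 0.186 CPM, and this limit covers counting error only. Atg5 counts were not lower in the libraries labelled Atg5-/-: the mean was 55.8 ± 17.6 CPM (SD, n = 3) in WT libraries given DMSO and 99.4 ± 30.6 in those given bortezomib, against 109 ± 3.69 and 108 ± 27.2 in the Atg5-/- libraries. A whole-gene count cannot isolate the floxed exon, so these cells are called knockout-labelled. Xist as a share of summed Xist and Ddx3y counts, a readout of cell sex, was 60.0% to 99.2% in WT DMSO and 0.234% to 0.987% in knockout-labelled DMSO libraries. Under bortezomib it was 31.8% to 90.3% in WT, and 100%, 0% and 3.51% in knockout-labelled libraries 1, 2 and 3. An earlier analysis of these data found replicate 3 of 3 groups (WT with DMSO, WT with bortezomib and knockout-labelled with bortezomib) apart from the rest on a principal component. Treatment results are therefore also given without these 3 libraries.

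The cluster spans 124 kb of chromosome 6 (48647234 to 48770851, GRCm38). In order, it holds Gimap8, Gimap9, Gimap4, Gimap6 (on the minus strand), Gimap7, Gimap1, Gimap5 and Gimap3 (minus strand). Gimap3, a close relative of Gimap5, is not among the 7 members and is given as a neighbour. The gene identifiers of all 7 members matched GENCODE M21 with their versions. Gimap4 (ENSMUSG00000054435.16) lies at 48684549 to 48692060, Gimap6 (ENSMUSG00000047867.11) at 48701582 to 48708225, Gimap7 (ENSMUSG00000043931.10) at 48718621 to 48724636, Gimap1 (ENSMUSG00000090019.5) at 48739054 to 48743795, and Gimap5 (ENSMUSG00000043505.8) at 48746197 to 48754210. Gimap8 (ENSMUSG00000064262.7) lies at 48647234 to 48660875 and Gimap9 (ENSMUSG00000051124.6) at 48676129 to 48679114.

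Reads cannot be assigned equally well along the cluster. The antisense gene Gimap1os and the readthrough gene Gm28053 cover 36.0% of the exonic bases of Gimap1, of which the same-strand part is 6.44% of those bases. Gm28053 also covers 3.48% of Gimap7 and 3.69% of Gimap5. The strand setting of the counting is unknown here, so reads from Gimap1 and Gimap1os cannot be told apart in the overlap. Gimap5 shares 4.53% of its 50-base words with Gimap3, while the other 6 members share 0% with any family gene.

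The promoters of 5 members are shown because each holds a match to the core motif of RUNX or ETS factors, which act in HSCs and lymphoid cells. Each is the 250 bases before the RefSeq start (GRCm38.p6), 5′ to 3′ on the gene's own strand. Capitals mark a match to the RUNX core TGTGGT or to the ETS core GGAAGT, searched on both strands; the RUNX matches shown read on the other strand. The first 3 carry the RUNX match and the other 2 the ETS match. RefSeq starts Gimap4 inside the GENCODE span, so the last bases of that window are transcribed in GENCODE. The windows are chr6:48684328-48684577 (plus strand) for Gimap4, chr6:48718371-48718620 (plus) for Gimap7, chr6:48738797-48739046 (plus) for Gimap1, chr6:48708245-48708494 (minus) for Gimap6 and chr6:48745947-48746196 (plus) for Gimap5.
Gimap4: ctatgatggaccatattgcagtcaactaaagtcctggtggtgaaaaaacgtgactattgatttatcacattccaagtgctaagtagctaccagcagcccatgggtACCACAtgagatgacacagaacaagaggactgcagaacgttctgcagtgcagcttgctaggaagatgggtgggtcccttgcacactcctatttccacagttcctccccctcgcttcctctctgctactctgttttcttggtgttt
Gimap7: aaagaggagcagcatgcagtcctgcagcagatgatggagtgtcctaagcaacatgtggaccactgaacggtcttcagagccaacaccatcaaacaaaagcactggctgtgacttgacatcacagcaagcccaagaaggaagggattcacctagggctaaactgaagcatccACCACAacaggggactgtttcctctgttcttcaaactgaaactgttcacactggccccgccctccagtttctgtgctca
Gimap1: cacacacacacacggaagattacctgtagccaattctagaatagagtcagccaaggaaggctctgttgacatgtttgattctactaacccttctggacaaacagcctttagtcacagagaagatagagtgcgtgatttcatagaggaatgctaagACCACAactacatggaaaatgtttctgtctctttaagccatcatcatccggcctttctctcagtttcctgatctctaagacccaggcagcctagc
Gimap6: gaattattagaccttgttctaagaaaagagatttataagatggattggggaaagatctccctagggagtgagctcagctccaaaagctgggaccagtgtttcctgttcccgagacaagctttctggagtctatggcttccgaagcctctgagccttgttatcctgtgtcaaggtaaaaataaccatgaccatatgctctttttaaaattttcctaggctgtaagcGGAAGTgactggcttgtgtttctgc
Gimap5: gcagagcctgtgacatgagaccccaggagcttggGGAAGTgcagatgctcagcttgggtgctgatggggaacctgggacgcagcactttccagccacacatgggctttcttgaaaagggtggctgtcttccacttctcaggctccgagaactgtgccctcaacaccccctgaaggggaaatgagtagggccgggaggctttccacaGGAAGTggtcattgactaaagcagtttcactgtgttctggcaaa

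The RUNX match starts at position -145 of Gimap4, -79 of Gimap7 and -95 of Gimap1, counted from the RefSeq start, and the ETS match of Gimap6 at -25. Gimap5 holds 2 ETS matches. Gimap8 and Gimap9 hold neither motif in their windows. Of 32851 RefSeq promoters of the same length, 14.0% hold the RUNX core and 19.7% the ETS core on either strand. A GATA core (AGATAA) was found in 0 of the 7 members' windows and in 9.99% of all promoters. An E-box (CANNTG) was found in every member's window but that of Gimap1, and in 66.2% of all promoters; in Gimap4 an E-box overlaps the RUNX match. These are matches of letters, and binding was not measured.

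All 7 members passed the low-count filter in both experiments. Per kilobase of exon not shared with another gene, Gimap6 had the highest mean level over the 21 libraries, at 110 ± 31.9 CPM per kb (SD, n = 21), and Gimap1 followed at 103 ± 25.0. These 2 differ by less than their spread, and with the overlapped bases counted in its length Gimap1 stood at 66.0 CPM per kb. By group their order varied: the mean of Gimap1 was above that of Gimap6 in WT bortezomib (68.0 against 62.2 CPM per kb), RFP single positive (112 against 100.2) and RFP GFP double positive HSCs (114 against 100.8), and below it in the other 4 groups. Gimap9 (46.5 ± 11.4) and Gimap5 (22.7 ± 4.74) came next, then Gimap4 (12.3 ± 6.96), Gimap8 (6.06 ± 2.46) and Gimap7 (3.31 ± 1.57). The levels of Gimap4 and Gimap8, neighbours in that order, lie within their spread of each other. Summed over the 7 members, the level was 969 ± 64.6 CPM (SD, n = 3) with DMSO and 528 ± 89.0 with bortezomib in WT HSCs, and 1026 ± 68.0 and 741 ± 35.1 in knockout-labelled HSCs. In the reporter groups the sum was 784 ± 115 in RFP single positive, 788 ± 115 in RFP GFP double positive and 816 ± 268 in double negative HSCs. The plot of levels by library shows Gimap4 as the member set apart by the knockout-labelled DMSO group, and Gimap6, Gimap1 and Gimap8 as those set apart by bortezomib in WT HSCs.

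**Figure D1:**
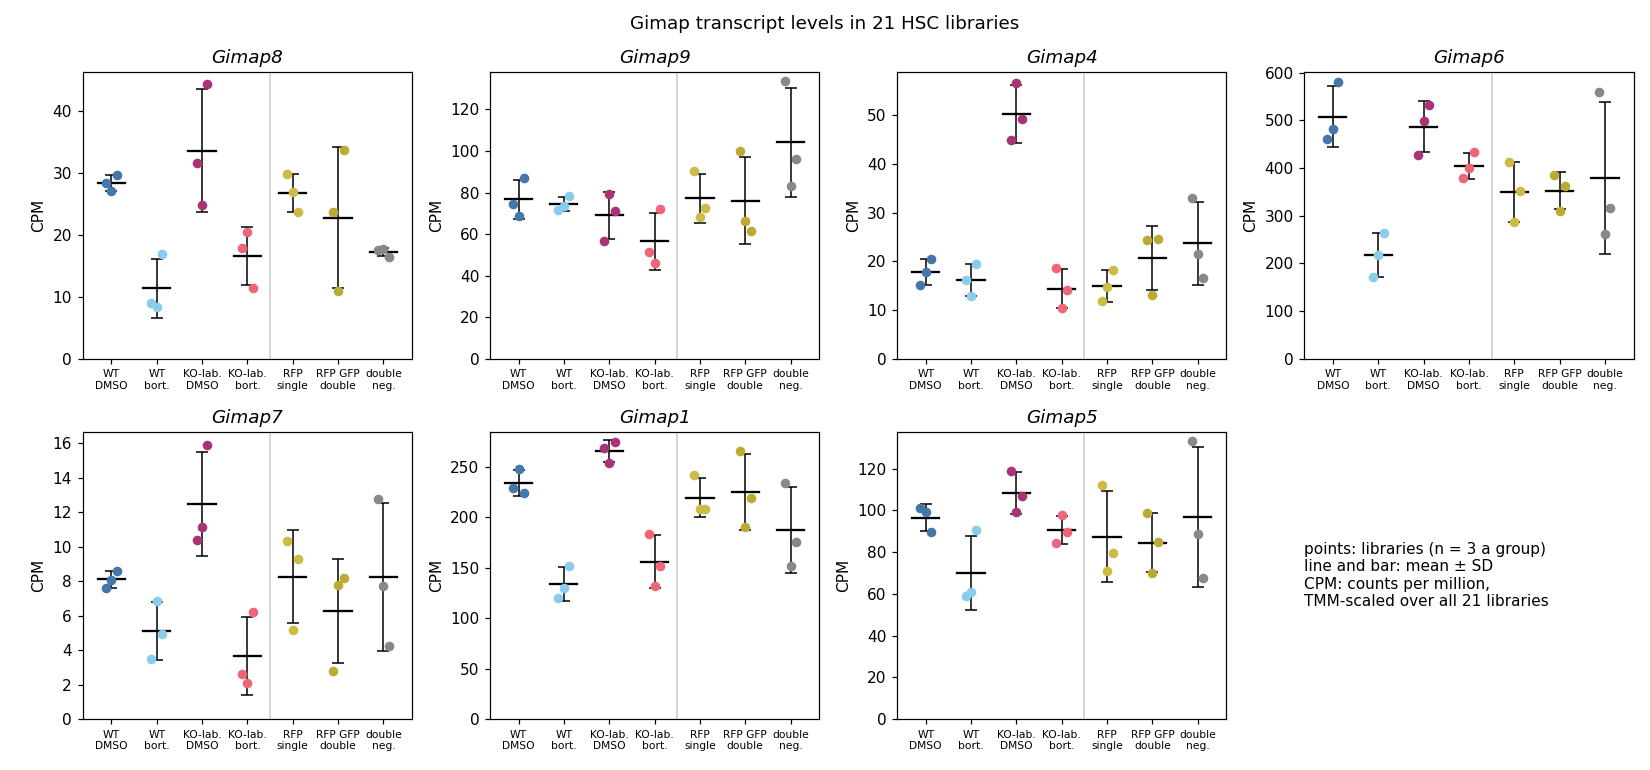
CPM of each member (y axis, from 0) in the 7 groups (x axis), with points for the 3 libraries of a group and a line and bar for the mean ± SD; KO-lab. is knockout-labelled and bort. is bortezomib. Gimap4 lies between 44.9 and 56.6 CPM in the knockout-labelled DMSO libraries, and Gimap6 between 171 and 263 CPM in the WT bortezomib libraries.

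In WT HSCs bortezomib lowered Gimap6, Gimap8 and Gimap1. Gimap4 shares the DMSO libraries that chose it and is described only, so 6 members were tested, and 3 fell and 0 rose. The 6 were tested on the same DMSO libraries, so these tests are not independent of the choice either. Among all 16149 genes tested, 7.56% were called lower and 7.97% higher, with an edgeR quasi-likelihood test and a Benjamini-Hochberg adjusted p under 0.05. The median log2 fold change over all genes was -0.04. The WT DMSO and WT bortezomib libraries did not overlap, with bortezomib lower, for Gimap1, Gimap6, Gimap7 and Gimap8. That is 4 of the 6 tested members against 18.8% of all genes. Gimap4, whose libraries overlapped, is left out of this comparison.

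Gimap6, the autophagy-linked member, had 460, 481 and 581 CPM in the WT DMSO libraries and 171, 218 and 263 CPM with bortezomib. The lowest DMSO library stood well above the highest bortezomib library. The fall was 2.29-fold (log2 fold change -1.20, SE 0.17, edgeR adjusted p = 0.00228). Gimap6 made up 50.3% to 55.8% of the summed Gimap CPM in WT DMSO and 38.1% to 42.7% in WT bortezomib.

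Gimap8, the longest protein of the family with several GTPase domains, had 28.4, 27.1 and 29.6 CPM in WT DMSO and 8.99, 8.29 and 16.9 CPM in WT bortezomib. Bortezomib library 3 was the highest of its group and still below every DMSO library. The fitted fall was 2.44-fold (log2 fold change -1.29, SE 0.31, edgeR adjusted p = 0.0129). The call was lost without either of the other bortezomib libraries: the edgeR adjusted p was 0.0704 without library 1 and 0.0579 without library 2. In those fits 3.47% and 7.80% of all genes were called, against 15.5% in the main fit.

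Gimap1, which is needed for the survival of mature B and T cells, had 229, 248 and 224 CPM in WT DMSO and 120, 130 and 152 CPM in WT bortezomib. The 3 bortezomib libraries lay below all 3 DMSO libraries. The fall was 1.72-fold (log2 fold change -0.78, SE 0.16, edgeR adjusted p = 0.00638).

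The other members in WT HSCs did not pass the test. Gimap7, whose protein pairs with other family members to stimulate GTP hydrolysis, went from 7.62, 8.06 and 8.59 CPM to 3.50, 6.87 and 4.91 CPM, a fitted log2 fold change of -0.64 with an SE of 0.39 (edgeR adjusted p = 0.291). Its groups did not overlap, yet the fitted interval ran from -1.48 to 0.19. Gimap5 had 89.5 to 101 CPM in DMSO and 58.9, 60.8 and 90.4 CPM with bortezomib (log2 fold change -0.44, edgeR adjusted p = 0.105). The high Gimap5 value is in bortezomib library 3; without that library the adjusted p was 0.0248 and the log2 fold change -0.67. Gimap9 was nearly level, at 68.5 to 87.2 CPM in DMSO and 71.7 to 78.4 CPM with bortezomib (log2 fold change -0.016, 95% interval -0.42 to 0.38, edgeR adjusted p = 0.969). Gimap4, as a description, had 15.2, 17.8 and 20.5 CPM in DMSO and 16.1, 12.9 and 19.4 CPM with bortezomib, and these groups overlap. Without the 3 libraries found apart, 4 members were called, Gimap5 added, while the share of all genes called in either direction went from 15.5% to 24.1%.

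In knockout-labelled HSCs bortezomib lowered Gimap7 and Gimap1. Of the same 6 tested members 2 fell and 0 rose, while 1.61% of all genes were called lower and 2.02% higher. The median log2 fold change of all genes was 0.003. Libraries did not overlap, with bortezomib lower, for Gimap1, Gimap5, Gimap7 and Gimap8 among these 6 members, against 10% of all genes. Gimap4 had no overlap either, but it was chosen on the DMSO libraries and is left out of this comparison. The 6 members share those DMSO libraries. There Gimap1 (265 against 234 CPM) and Gimap7 (12.5 against 8.09 CPM) were also higher than in WT DMSO, without overlap. Over the 12 treatment libraries the Pearson r of log2 CPM with Gimap4 was 0.75 for Gimap1 and 0.72 for Gimap7. The calls of Gimap7 and Gimap1 are therefore not independent of the choice. These calls were less steady than those in WT HSCs. With only these 2 groups in the fit, 0 of 6 members were called, and 2.15% of all genes against 3.63% in the main fit. Gimap7 lost its call when any of 4 libraries was left out. In those 4 fits 1.07% to 2.77% of all genes were called, so calls were lost beyond the members too.

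Gimap7 had 10.4, 11.1 and 15.9 CPM in the knockout-labelled DMSO libraries and 2.63, 2.11 and 6.22 CPM with bortezomib, counts of 216 to 257 against 43 to 170. All bortezomib libraries lay below all DMSO libraries. The fitted fall was 3.38-fold (log2 fold change -1.76, SE 0.40, edgeR adjusted p = 0.0232). The adjusted p was 0.0901 without bortezomib library 1, 0.0924 without bortezomib library 2, 0.0657 without DMSO library 2 and 0.0801 without DMSO library 3. With the Xist share as a covariate it was 0.0657. Bortezomib library 3 was the highest of its group, and without it the log2 fold change was -2.37 (adjusted p = 0.00225).

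Gimap1 had 269, 253 and 274 CPM in knockout-labelled DMSO libraries and 184, 132 and 152 CPM with bortezomib. The groups did not overlap, and the fall was 1.69-fold (log2 fold change -0.76, SE 0.16, edgeR adjusted p = 0.0128), beside 1.72-fold in WT. Without bortezomib library 2 its adjusted p was 0.0619. Gimap8 had 31.6, 24.9 and 44.4 CPM in DMSO and 17.9, 20.4 and 11.5 CPM with bortezomib, a log2 fold change of -1.01 (SE 0.30) that did not pass (edgeR adjusted p = 0.0829). Without the 3 libraries found apart Gimap8 was added to the calls, with an adjusted p of 0.0487, and the share of all genes called in either direction went from 3.63% to 11.6%.

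For Gimap6 the knockout-labelled libraries had 428, 499 and 533 CPM in DMSO and 379, 400 and 433 CPM with bortezomib, and these ranges overlap (log2 fold change -0.26, 95% interval -0.62 to 0.11, edgeR adjusted p = 0.506). Gimap5 (log2 fold change -0.25, adjusted p = 0.547) and Gimap9 (-0.28, adjusted p = 0.522) did not pass the test either. Gimap4, as a description, had 44.9, 56.6 and 49.2 CPM in DMSO and 18.6, 10.5 and 14.2 CPM with bortezomib, a fitted log2 fold change of -1.79 (SE 0.24). That difference starts from the DMSO libraries for which Gimap4 was chosen.

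**Figure D2:**
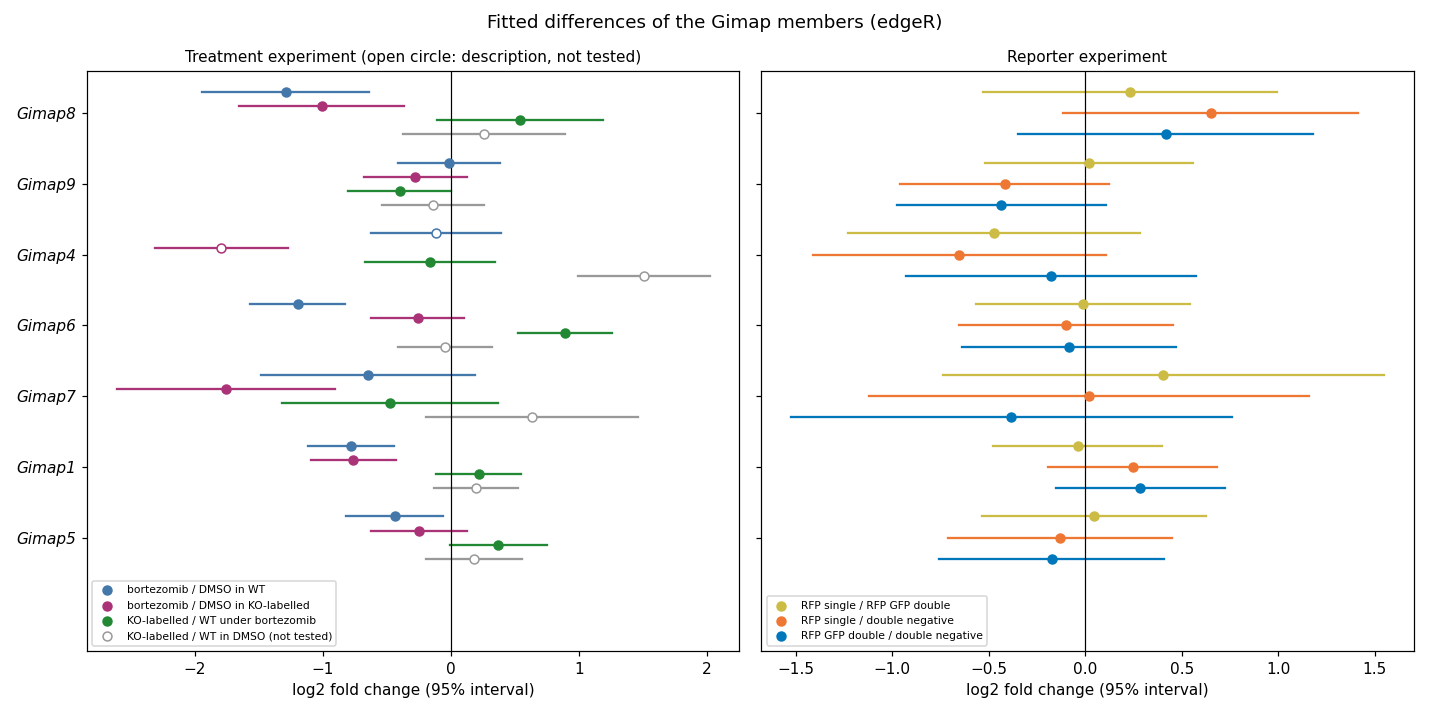
Fitted log2 fold changes (x axis) with 95% intervals for the 7 members in cluster order (y axis), in 4 contrasts of the treatment experiment (left) and 3 of the reporter experiment (right); open circles are descriptions that were not tested. Gimap6 lies at -1.20 for bortezomib in WT, -0.26 in knockout-labelled HSCs and 0.89 between genotypes under bortezomib, and all reporter intervals cross 0.

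Under bortezomib the 2 genotypes were compared in libraries the choice of the family did not use, and Gimap6 was 1.85-fold higher in knockout-labelled HSCs. Its 379, 400 and 433 CPM lie above the 171, 218 and 263 CPM of the WT libraries without overlap (log2 fold change 0.89, SE 0.17, 95% interval 0.52 to 1.26, edgeR adjusted p = 0.00134). Gimap6 was the single member of 7 called, against 17.2% of all genes called higher and 15.3% lower, so the members' share is near the background. The median over all genes was 0.08. Gimap6 remained called in all 15 alternative settings, with log2 fold changes of 0.75 to 1.05.

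The remaining 6 members did not pass the test between genotypes under bortezomib. Gimap5 (log2 fold change 0.37, edgeR adjusted p = 0.125), Gimap8 (0.54, adjusted p = 0.194) and Gimap1 (0.22, adjusted p = 0.316) had higher fitted values in knockout-labelled HSCs. Gimap9 (-0.40, adjusted p = 0.119), Gimap7 (-0.48, adjusted p = 0.393) and Gimap4 (-0.17, adjusted p = 0.643) had lower ones. Without the 3 libraries found apart, where 39.3% of all genes were called in either direction against 32.4% with them, 5 members were called: Gimap5 (0.57), Gimap6 and Gimap8 (1.12) higher, and Gimap7 (-1.16) and Gimap9 (-0.60) lower. The count was 3 without WT bortezomib library 3, which adds Gimap5 and Gimap8, and 3 without knockout-labelled bortezomib library 3, which adds Gimap7 and Gimap9.

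In DMSO, the contrast by which the family was chosen, Gimap4 had 15.2, 17.8 and 20.5 CPM in WT and 44.9, 56.6 and 49.2 CPM in knockout-labelled libraries. Gimap4 protein has been linked to the pace of T-cell death. These 3 libraries are its highest of all 21; the next is double negative library 1 at 33.1 CPM. The fitted log2 fold change was 1.51 (SE 0.24), given without a test. No other member came near that value: Gimap7 stood at 0.64, Gimap8 at 0.26, Gimap1 at 0.20, Gimap5 at 0.18, Gimap6 at -0.05 and Gimap9 at -0.14. The Xist shares of the 2 DMSO groups do not overlap, so genotype and cell sex cannot be told apart in this contrast. Under bortezomib the knockout-labelled library with an Xist share of 100% had 18.6 CPM of Gimap4, and those with 0% and 3.51% had 10.5 and 14.2 CPM.

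The difference between the genotypes' bortezomib responses holds the same DMSO libraries and is likewise a description. Its log2 values were -1.67 for Gimap4, -1.11 for Gimap7, 0.94 for Gimap6, 0.28 for Gimap8, 0.19 for Gimap5, 0.02 for Gimap1 and -0.26 for Gimap9. That Gimap6 was called in WT and not in knockout-labelled HSCs, and Gimap7 the other way round, does not by itself show a difference, which was not tested.

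Cells with other markers could add Gimap transcripts to a bulk library, because T, B and NK lymphocytes express the family strongly. Of the 17 T-cell genes listed, Cd3e, Cd3g, Cd8a and Cd8b1 had 0 counts in all 21 libraries and 6 were tested. The T-cell list summed to 72.3 to 81.2 CPM with DMSO and 63.5 to 102 with bortezomib in WT HSCs, and 38.6 to 54.9 and 47.0 to 73.7 in knockout-labelled HSCs. Lat, at a mean of 50.7 CPM in WT DMSO and 28.9 CPM in knockout-labelled DMSO libraries, made up most of this sum. The part of these cells in the Gimap4 values was not tested. Cd247 fell in WT with bortezomib and was higher in knockout-labelled HSCs under bortezomib, while Lck was lower in the latter. The B-cell markers Ms4a1, Pax5 and Igll1 and the NK-cell markers Ncr1, Gzma and Klre1 were also at 0 in all 21 libraries. Other genes of these lists were present in every library: Cd79b at 51.3 to 112 CPM, Nkg7 at 39.3 to 197 CPM and Klrb1c at 2.79 to 19.4 CPM. Over the 21 libraries the B-cell list summed to 53.6 to 113 CPM and the NK-cell list to 43.4 to 208 CPM. Of 5 tested B-cell genes 1 fell with bortezomib in WT and 0 were called between genotypes under bortezomib. Of 2 tested NK-cell genes 1 rose with bortezomib in WT (Nkg7) and 1 was lower in knockout-labelled HSCs under bortezomib.

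Genes of other lists were called in the same comparisons as Gimap6. Their counts are read against the shares of all genes called: 7.56% lower and 7.97% higher in WT, 1.61% lower and 2.02% higher in knockout-labelled HSCs, and 17.2% higher and 15.3% lower between genotypes under bortezomib. In bulk RNA, fewer cells of a type and less RNA per cell cannot be told apart. Of 12 HSC marker genes 8 fell with bortezomib in WT (median log2 fold change -0.69), 1 fell in knockout-labelled HSCs (Hlf, a stem-cell transcription factor), and 8 were higher in knockout-labelled HSCs under bortezomib (median 0.75). Kit, the stem cell factor receptor used in the sort, fell in WT from 882 ± 165 to 395 ± 68.2 CPM (SD, n = 3), a log2 fold change of -1.13 (edgeR adjusted p = 0.00367). Ly6a, which encodes Sca-1, did not pass the test in WT (0.27). The summed HSC list was 3372 to 3573 CPM in WT DMSO, 1869 to 2315 in WT bortezomib and 2761 to 3115 in knockout-labelled bortezomib libraries.

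Of 8 tested endothelial genes, Robo4, Plvap and Kdr fell with bortezomib in WT and were higher in knockout-labelled HSCs under bortezomib; 0 were called in knockout-labelled HSCs between treatments. Their list summed to 93.6 to 107 CPM in WT DMSO, 38.5 to 61.9 in WT bortezomib, and 108 to 138 in knockout-labelled bortezomib libraries, and Cdh5 and Esm1, defining markers, were at 0 in all groups but the last. Robo4 and Emcn, at means of 48.5 and 40.9 CPM in WT DMSO, made up most of the sum there, and Emcn was not called. Kdr and Plvap were low, with means of 4.09 and 1.03 CPM in WT DMSO and 0.486 and 0.0803 CPM in WT bortezomib. Of 9 tested monocyte and macrophage genes, 6 were lower in knockout-labelled HSCs under bortezomib, where the list summed to 97.3 to 100.2 CPM, against 137 to 248 CPM in WT bortezomib and 89.3 to 124 in WT DMSO. Cd68 rose with bortezomib in both genotypes. The part of the HSC, endothelial and macrophage lists in the Gimap6 difference was not tested. Of 9 erythroid genes 2 rose and 1 fell with bortezomib in WT, 1 fell in knockout-labelled HSCs, and 1 was higher and 1 lower between genotypes, where both counts are near the background. Of 7 megakaryocyte genes 1 fell in WT, 2 fell in knockout-labelled HSCs, and 1 was higher and 3 lower between genotypes. Of 8 neutrophil genes 0 were called with bortezomib in either genotype and 1 was lower between genotypes, again near the background.

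The lymphoid-priming list, genes that HSCs and early progenitors turn on toward the lymphoid fate, was higher in knockout-labelled HSCs under bortezomib in 9 of 14 tested genes, with 0 lower (median log2 fold change 0.76, against 0.08 over all genes, of which 17.2% were called higher). Ltb, encoding lymphotoxin beta, had 205.5 ± 36.0 CPM against 86.7 ± 54.4 CPM in WT (SD, n = 3), a log2 fold change of 1.24 (edgeR adjusted p = 0.00634). With bortezomib in WT, Ltb and Gata3 fell and Id2, an inhibitor of E proteins, rose; in knockout-labelled HSCs Id2 alone rose. Tcf3 and Cd27, the other most abundant genes of the list, were not called in these 3 comparisons. Il7r, the interleukin 7 receptor of committed lymphoid progenitors, had 0 counts in all 21 libraries.

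The list of known partners of Gimap proteins held 9 genes, BCL2-family regulators of cell death and GABARAP-type ATG8 genes. Gabarapl1 fell with bortezomib in WT, from 268 ± 11.4 to 180 ± 8.91 CPM (SD, n = 3), a log2 fold change of -0.55 (edgeR adjusted p = 0.0172). It rose in knockout-labelled HSCs, from 221 ± 8.73 to 317 ± 32.7 CPM (0.53, adjusted p = 0.0463), and was higher in them than in WT under bortezomib (0.82, adjusted p = 0.000605). Gabarapl2, the partner described for Gimap6, was not called (0.14 in WT, 0.32 in knockout-labelled HSCs and -0.09 between genotypes). Mcl1, an anti-apoptotic protein, was higher in knockout-labelled HSCs under bortezomib (447 ± 22.1 against 308 ± 32.3 CPM; log2 fold change 0.54, adjusted p = 0.0110). Bax, a pro-apoptotic protein, rose with bortezomib in WT (0.83, adjusted p = 0.0177) and was lower in knockout-labelled HSCs under bortezomib (-0.73, adjusted p = 0.0151). Gabarap and Bcl2 were not called in these comparisons.

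Genes lying beside the cluster were read as neighbours on the chromosome. Gimap3 had log2 fold changes of -0.66 with bortezomib in WT (edgeR adjusted p = 0.242) and -1.04 in knockout-labelled HSCs (adjusted p = 0.144), neither of them called. The readthrough gene Gm28053, at a mean of 5.88 CPM in WT DMSO, fell in WT (-1.39, adjusted p = 0.0375), and its exons overlap those of 3 members. Gimap1os did not pass (-0.68, adjusted p = 0.124, and -0.95, adjusted p = 0.0877). Outside the cluster, Repin1 was at -0.03 and -0.12, and Tmem176b, the nearest tested gene beyond Gimap3, at -0.04 and 0.06. Of the 5 tested genes on each side, 0 were called with bortezomib in either genotype. Among all genes 15.5% were called in WT and 3.63% in knockout-labelled HSCs, so this count does not show unchanged flanks. Gpnmb aside, intervals lay off 0 in WT for Lrrc61 (-0.87, edgeR adjusted p = 0.0642) and Malsu1 (0.64, adjusted p = 0.0661). In knockout-labelled HSCs that of Gm5111 did (-1.12, adjusted p = 0.0760). Between genotypes under bortezomib Gm5111, a flanking gene, was lower (-1.55, adjusted p = 0.00256). In the plot along the cluster, the intervals of Gimap8, Gm28053, Gimap1os and Gimap1 lie below 0 in both genotypes, while those of Gimap9 cross it in both.

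**Figure D3:**
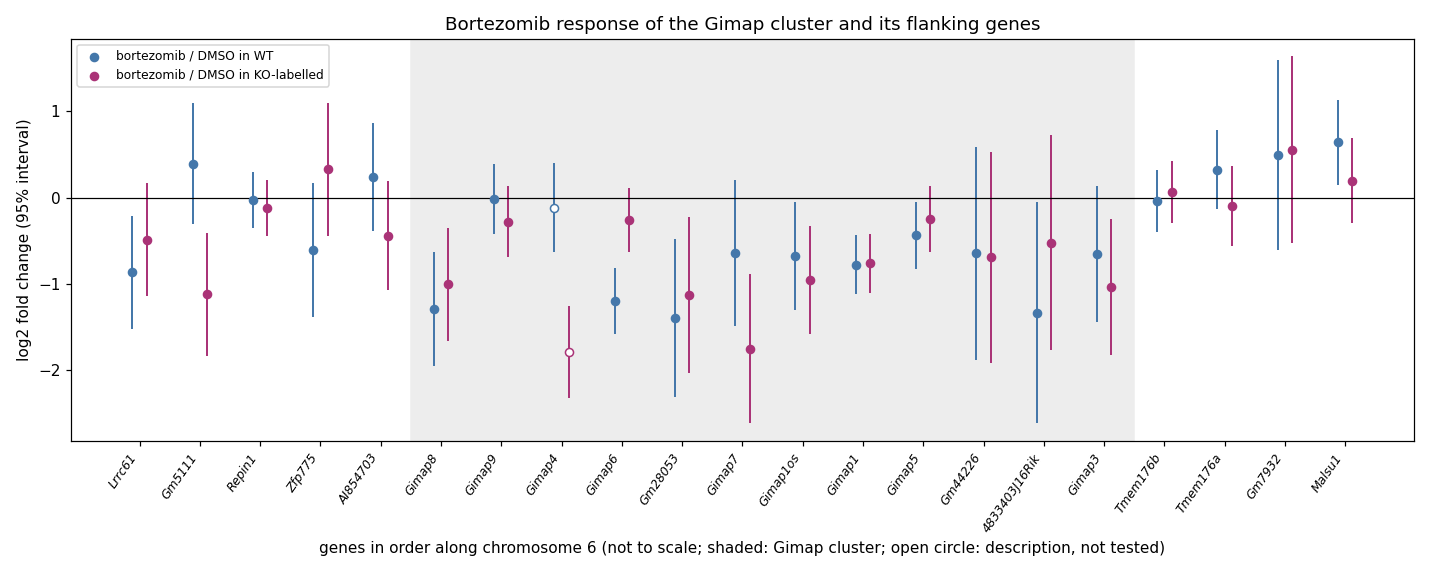
Log2 fold changes of bortezomib against DMSO (y axis, bars are 95% intervals) in WT and knockout-labelled HSCs for the genes of the Gimap cluster (shaded) and the tested flanking genes, in chromosome order and not to scale; open circles for Gimap4 are descriptions, and Gpnmb, with at most 55 counts in any library, is left out. Tmem176b sits at -0.04 and 0.06, Lrrc61 at -0.87 and -0.49, Gm5111 at 0.39 and -1.12, and Gimap1 at -0.78 and -0.76.

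Reporter sorts did not separate the members. Of 7 members 0 were called in RFP single positive against double positive HSCs, 0 in RFP single positive against double negative and 0 in double positive against double negative. Among all 15375 genes, 0%, 0% and 0.0065% were called with edgeR, with 209, 1160 and 1315 genes at an unadjusted p under 0.05. Of the members 0 reached an unadjusted p under 0.05, and DESeq2 and limma voom called 0 members. The widest fitted differences were both between RFP single positive and double negative HSCs. Gimap4 had 11.8, 14.8 and 18.2 CPM in RFP single positive and 33.1, 21.5 and 16.6 CPM in double negative libraries, which overlap (log2 fold change -0.65, 95% interval -1.41 to 0.11, edgeR adjusted p = 0.677). Gimap8 had 29.8, 26.9 and 23.7 CPM against 17.6, 17.7 and 16.5 CPM, which do not overlap (0.65, 95% interval -0.12 to 1.41, adjusted p = 0.679). These intervals leave room for changes of more than the fold seen for Gimap1 with bortezomib.

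Levels within a reporter group were spread widely. Gimap6 had 412, 286 and 353 CPM in RFP single positive, 385, 310.2 and 362 in double positive, and 559, 261 and 317 in double negative libraries. Double negative library 1 was the highest of its group for all members but Gimap8, with a summed Gimap level of 1124 CPM against 631 and 693 in the other two. Gimap1 ranged from 151 to 265 CPM and Gimap5 from 67.7 to 133 CPM over the 9 reporter libraries. Gimap9 ranged from 61.7 to 134 CPM and Gimap7 from 2.78 to 12.8 CPM. The groups overlap for Gimap1, Gimap5, Gimap6, Gimap7 and Gimap9.

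Over the 21 libraries the Pearson r of log2 CPM was positive in 20 of 21 pairs, with a median of 0.47. In the 12 treatment libraries Gimap1 and Gimap8 had the highest r (0.89), and Gimap9 had r of -0.02 with Gimap8 and 0.01 with Gimap6. With the group means removed the median was 0.39, and Gimap6 with Gimap9 was the highest pair (0.72). These are descriptions over libraries that share groups and depth, and no p is given.

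**Figure D4:**
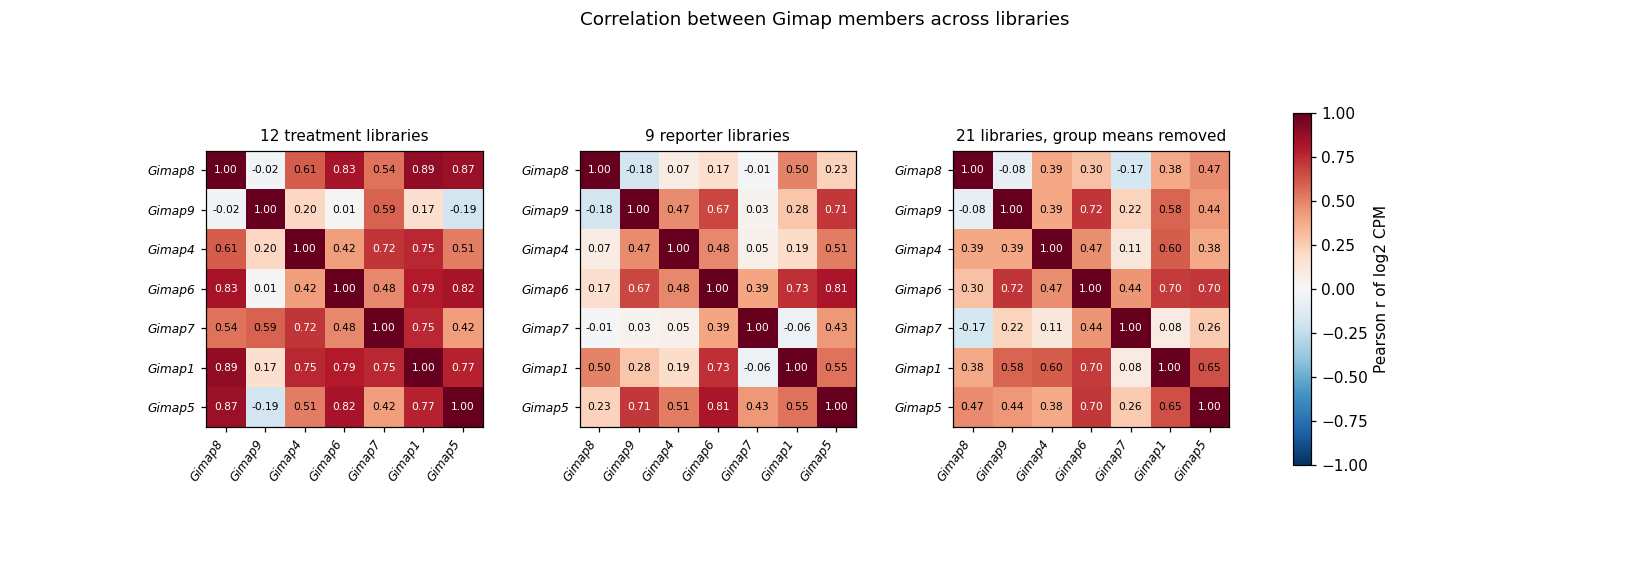
Pearson r of log2 CPM for each pair of members (cells, blue to red from -1 to 1) over the 12 treatment libraries, the 9 reporter libraries and all 21 libraries after removing group means. Gimap9 is nearly uncorrelated with Gimap8 and Gimap6 in the treatment libraries (-0.02 and 0.01), and with group means removed Gimap6 and Gimap9 reach 0.72.

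Among 10692 candidate genes with a mean of at least 5 CPM, those most like each member over the 21 libraries were taken by the same measure. Gimap6 was most like Btg1, an anti-proliferative gene (r = 0.88), Rell1 (0.86) and Pcmtd1 (0.85). Gimap1 was most like the tetraspanin Tspan14 (0.91), Fam43a (0.88) and Tmem8 (0.86). Gimap4 had weaker matches, led by Cd47, the ligand that inhibits phagocytosis (0.69), D130017N08Rik (0.69) and Ncf4 (0.65). Gimap9 was most like Zfp637 (0.91), Fis1, a mitochondrial fission factor (0.87), and Rnaset2b (0.87). Gimap7 was most like Hmox2 (0.78), Fuz (0.76) and Hk3 (0.75). Members stood among the nearest genes of 2 others: Gimap6 led the genes like Gimap5 (0.79), ahead of Zfp809 (0.77) and Orai1 (0.76), and Gimap1 (0.80) followed Armcx1 (0.83) and Aldh6a1 (0.81) for Gimap8.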

How the data were processed

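Raw read counts per gene were deposited by the authors; per the submitters' processing notes, Bowtie 1.0.0, STAR 2.6.1 and HTSeq 0.7.1 were used, and the builds GRCm38.p4 and GRCh38 are named without roles. The annotation release is not given in the sources used here. Of 47729 gene identifiers, 81.9% matched GENCODE M21 with their version. Groups come from the sample labels, and 0 columns had no sample. The test was that of edgeR 4.0.16 under R 4.3.3 (filterByExpr, TMM, quasi-likelihood), in a single fit over the libraries of each experiment (12 and 9), with p-values Benjamini-Hochberg adjusted over all genes of a comparison; 6 comparisons were tested. Printed CPM use a joint TMM over 21 libraries. Log2 CPM used a prior count of 2. The procedure was run on simulated data in which few genes were changed, in a single group. Many genes were called in the treatment data, so that run does not test the calls made here. The members and the 11 gene lists were chosen with earlier results of these data known. Named genes are Atg5, all members, Gimap3 and up to 5 tested genes on each side of the cluster, the 3 genes most like each member, and list members by highest mean CPM; list members named in counts were added after their values were seen. A list member that this rule gives is not reported here. Alternatives were RLE size factors, DESeq2 1.42.0, limma 3.58.1 voom with quality weights, no filter, only the compared groups, a replicate block, the Xist share as a covariate, leaving out libraries and, added after seeing the data, offsets for transcript length and GC content. Promoters are from RefSeq (GRCm38.p6), and all 7 members matched by symbol. Protein sequences were not used here.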

Additional observations from a re-analysis of the deposited data

How the results depend on the processing

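Of 558 recomputed fold changes of single members, 529 kept their direction and side of the threshold, 10 lost the call, 19 gained it and 0 reversed a call; of 84 recomputed counts of called members 10 moved by over 1.5 times. Gimap6 and Gimap1 with bortezomib in WT, and Gimap6 between genotypes under bortezomib, were called in all 15 alternatives. Between genotypes under bortezomib the main count of 1 became 5 with limma voom and 5 without the 3 libraries found apart. It was 1 to 3 when single libraries were left out. Of all genes 46.0% were called with limma voom and 39.3% without the 3 libraries, against 32.4% in the main fit. With single libraries left out the share was 21.1% to 35.5%. In knockout-labelled HSCs the main count of 2 became 0 with only the 2 groups compared, 1 with the Xist share as a covariate, 3 (Gimap8 added) with DESeq2, no filter, the length and GC offsets or without the 3 libraries found apart, and 0 to 2 when single libraries were left out (0 without bortezomib library 2; Gimap7 lost without bortezomib library 1, DMSO library 2 or DMSO library 3). In WT the main count of 3 ran from 2 to 4. The cause was not tested, although fits with fewer libraries have less power. Over all genes the calls ran from 3582 to 7428 (main 5234) between genotypes under bortezomib, 588 to 6234 (main 2508) in WT and 182 to 1902 (main 586) in knockout-labelled HSCs. In the reporter contrasts 0 members were called in every alternative. Uncalled fold changes of Gimap4 between genotypes under bortezomib and of Gimap9 in WT changed sign in 3 and 4 alternatives.

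With the replicate number as a block, the counts of called members were 1 between genotypes under bortezomib, 3 in WT, 2 in knockout-labelled HSCs and 0 in each reporter comparison. The residuals of same-numbered libraries had correlations of -0.03 to 0.13. In the reporter experiment, however, the Xist share went with the replicate number. In the order RFP single positive, RFP GFP double positive and double negative, it was 0%, 0% and 10.2% in libraries numbered 1. It was 99.9%, 97.4% and 88.1% in those numbered 2, and 5.45%, 0.782% and 0% in those numbered 3. Whether same-numbered reporter libraries share mice was not tested, and the main fit did not pair them.

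Counts of 3 libraries a group limit the precision: an uncalled member can still differ by any value inside its interval. Gimap7, at 43 to 269 counts in every library, has the widest intervals.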
